A study of Mus musculus with 18 samples.

Results

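Kidney transcripts of 10 genes of the amino acid starvation response were followed, out of 78239 genes listed in the count files. The genes were taken by name, with earlier results of these data known. They were Atf4, which encodes the transcription factor of the response, and genes that ATF4 is known to induce. The latter were Asns, Chac1, Trib3, Ddit3, Sesn2, Psat1, Phgdh, Shmt2 and Eif4ebp1. The kidneys came from wild-type CD-1 mice, an outbred stock, collected at 6 wk of age. LP offspring were born to dams given an isocaloric 8% protein diet through gestation and lactation, and NP offspring to dams given 18% protein. All offspring were weaned to the 18% diet, so no mouse was eating the low protein diet at collection. All mice also had a transdermal measurement of glomerular filtration rate and injections of cationic ferritin, an imaging contrast agent, and their kidneys were cleared with saline. Each mouse gave 1 library, and the groups held 5 mice each for LP males, NP males and LP females and 3 for NP females. Female kidneys were collected longer after the last ferritin injection than male kidneys, so sex and collection time cannot be told apart. The labels do not tie mice to litters, so littermates may stand among the replicates, and p-values measure the spread between mice of this 1 cohort.

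When an amino acid runs short, uncharged transfer RNA activates the kinase GCN2 (Eif2ak4), which phosphorylates the translation initiation factor eIF2 alpha. General translation falls, while the Atf4 message is translated more, because upstream reading frames in its leader are then bypassed. ATF4 binds with C/EBP proteins at composite sites and induces genes for amino acid synthesis, import and transfer RNA charging. Other eIF2 alpha kinases, PERK (Eif2ak3), PKR (Eif2ak2) and HRI (Eif2ak1), feed the same route from endoplasmic reticulum stress, double-stranded RNA and heme or mitochondrial stress. In the kidney the proximal tubule recovers filtered amino acids and releases serine into the blood. Since ATF4 is set mainly at translation, these messenger RNA counts measure the Atf4 transcript and not ATF4 protein.

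The composite site, which ATF4 binds together with C/EBP proteins, was looked for in the promoters of the genes. Promoter windows from RefSeq, from 250 bases before to 50 after the start site, were at hand for 9 of the 10 genes and were placed on GRCm39 by exact match. The letters TGATGNAA, on either strand, stood in the windows of 3 of these 9 genes. The same letters stood in 3.97% of all 32851 windows, and the stricter TGATGCAA in 0.895%. Sequence outside the windows was not searched, so a gene without a match may hold a site elsewhere. The motif is in capitals in the 120 bases around it, printed on the strand of the gene.
Chac1: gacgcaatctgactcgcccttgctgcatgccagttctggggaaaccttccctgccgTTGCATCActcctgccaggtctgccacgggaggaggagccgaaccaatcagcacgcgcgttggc
Asns: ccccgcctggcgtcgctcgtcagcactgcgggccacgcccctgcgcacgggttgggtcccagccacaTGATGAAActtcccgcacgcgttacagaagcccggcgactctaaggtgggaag
Trib3: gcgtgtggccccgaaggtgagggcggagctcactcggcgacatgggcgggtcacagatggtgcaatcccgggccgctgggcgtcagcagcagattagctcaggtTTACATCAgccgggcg

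The Chac1 stretch is chr2:119181474-119181593, plus strand, with the motif 193 bases before the start site. That of Asns is chr6:7693180-7693299, minus strand, with the motif 23 bases before the start, and that of Trib3 is chr2:152185951-152186070, minus strand, with the motif 15 bases after it. A match is a description of the sequence and no evidence that ATF4 was bound.

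Reads counted on genes numbered 14050486 to 23562411 in single libraries (median 16747971). In the first split of a clustering of all libraries, LP females 1 and 2 and NP female 3 stood apart from the other 15. Their summed level of 8 interferon response genes was 85.6 to 139 normalised CPM (the reads of a gene scaled to library size), against 773 to 2923 in the other 5 females. Their summed levels were lower too, 219 to 467 against 920 to 1344 CPM for 6 glucocorticoid response genes, and at most 17.1 against 130 to 357 CPM for 3 tubular injury genes. The defining markers of the proximal tubule, thick ascending limb, distal convoluted tubule, collecting duct, intercalated cells and podocytes were detected in males and females. Results on females were also computed without these 3 libraries. In bulk kidney, fewer cells of a type and less RNA per cell cannot be told apart.

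The 10 genes spanned a wide range of levels. Levels were compared between genes per kilobase of the canonical transcript, as normalised CPM per kb (mean ± SD, n = 18). Shmt2, the mitochondrial enzyme that takes a one-carbon unit from serine, was highest at 99.5 ± 27.3. Atf4 followed at 46.5 ± 8.54. Psat1, the aminotransferase of serine synthesis, came next at 22.1 ± 11.6, and Sesn2, a leucine sensor that holds back mTORC1, was at 21.9 ± 5.82. Phgdh, the first enzyme of serine synthesis, stood at 12.8 ± 6.02, and Ddit3, which encodes the stress factor CHOP, at 8.59 ± 3.24. The ranges of mean ± SD of neighbours among these 4 overlapped. The lowest 4 were Eif4ebp1, the repressor of cap-dependent translation, at 2.03 ± 0.694, Chac1, which degrades glutathione, at 1.60 ± 1.00, Asns, asparagine synthetase, at 1.07 ± 0.363, and Trib3, a pseudokinase that binds ATF4 and AKT, at 0.441 ± 0.213. Neighbouring ranks among Eif4ebp1, Chac1 and Asns lay within their spread. Per kilobase of all annotated exons Sesn2 stood above Psat1, and Chac1 and Asns above Eif4ebp1.

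The genes were placed on GRCm39. Atf4 lies at chr15:80139372-80141745 on the plus strand, Phgdh at chr3:98220484-98255047 on the minus strand and Chac1 at chr2:119180757-119184866 on the plus strand, and none of these overlapped another annotated gene. Shmt2, at chr10:127352266-127358323 on the minus strand, overlaps Ndufa4l2. Ddit3, at chr10:127124268-127132163 on the plus strand, overlaps Mbd6, Mars1 and several non-coding genes. It also overlaps another protein-coding entry named Ddit3 on the same strand. The Ddit3 values here are those of the entry at these positions, and not of both. Psat1, at chr19:15882039-15924701 on the minus strand, overlaps a processed pseudogene. Asns, Trib3 and Sesn2 overlap 1 non-coding gene each, and Eif4ebp1 several. Reads were counted without regard to strand, so counts of a gene and of an overlapping gene on either strand are not cleanly separated.

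**Figure D1:**
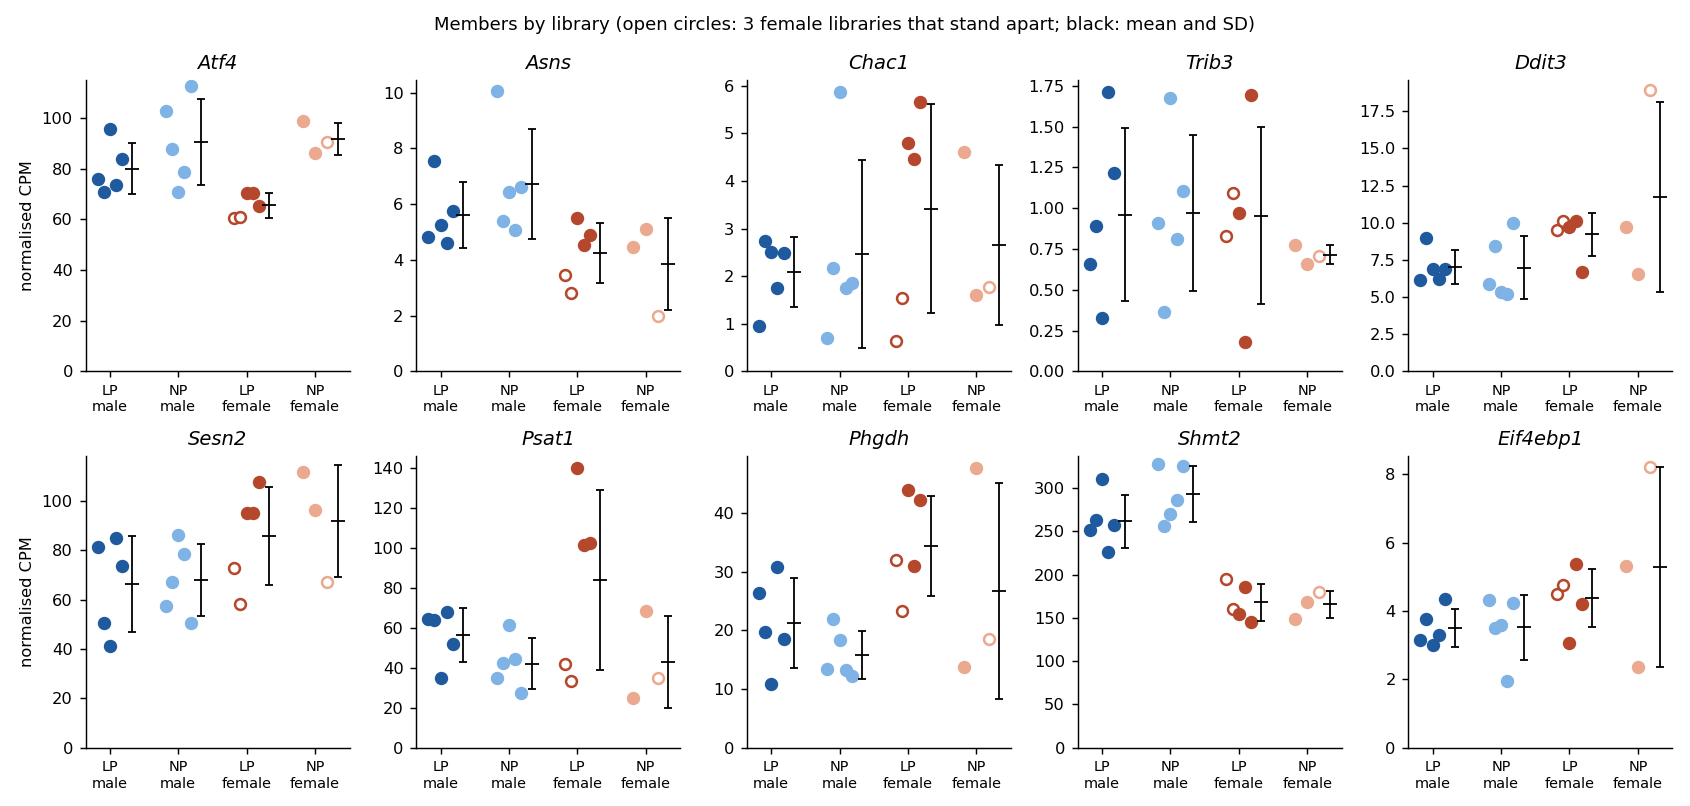
Normalised CPM (linear axis from 0) of the 10 genes in each of 18 libraries, by diet and sex. Circles are single mice, open circles are the 3 females that stood apart, and black bars are the group mean and SD. LP females lay below NP females for Atf4, and males lay above females for Shmt2.

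The first comparison asked whether maternal protein restriction left the amino acid response changed in adult male kidneys. None of the genes passed the test in LP males. Of the 10 genes, 9 passed the minimum of 10 counts in each library and were tested, and Trib3, with 3 to 42 counts, was not. By edgeR's quasi-likelihood test with Benjamini-Hochberg adjustment over 13181 genes, 0 of 9 passed an adjusted p of 0.05, where 0.0379% of all genes tested did. At an unadjusted p under 0.05 there were again 0 of 9, against 3.84% of all genes. By DESeq2 there were also 0 of 9 at either threshold. The LP and NP male values of every one of the 10 genes overlapped, while 0.668% of all genes had groups that did not.

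Psat1 and Phgdh, the enzymes of serine synthesis, had the largest differences in males. Psat1 was 64.6, 63.9, 35.1, 67.9 and 51.8 CPM in LP males and 34.9, 42.2, 61.5, 44.3 and 27.5 CPM in NP males. LP male 3 sat low and NP male 3 high, so the groups overlapped. The log2 difference was 0.43 (SE 0.22, adjusted p by edgeR = 1.00). Phgdh was 26.3, 19.8, 10.9, 30.8 and 18.6 CPM in LP males and 13.4, 21.9, 18.3, 13.2 and 12.3 CPM in NP males. LP male 3 was again the lowest of its group, and the log2 difference was 0.43 (SE 0.25, adjusted p by edgeR = 1.00). Leaving out 1 male at a time moved the Psat1 difference between 0.31 (without NP male 5) and 0.60 (without NP male 3). It moved the Phgdh difference between 0.25 (without LP male 4) and 0.60 (without LP male 3). No adjusted p passed in these fits. The other log2 differences were -0.27 for Asns (SE 0.21), -0.24 for Chac1 (SE 0.46), -0.18 for Atf4 (SE 0.13), -0.16 for Shmt2 (SE 0.10), -0.03 for Sesn2 (SE 0.21), -0.01 for Eif4ebp1 (SE 0.22) and 0.01 for Ddit3 (SE 0.21). The median over the 9 genes was -0.03, beside -0.00 over all genes tested.

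In females the lower Atf4 transcript in LP offspring was the one difference without overlap. Atf4 was 60.6, 61.0, 70.5, 70.5 and 65.2 CPM in LP females and 98.9, 86.4 and 90.4 CPM in NP females. Every LP female lay below every NP female, as was so in either direction for 2.98% of all 13510 genes tested. The log2 difference was -0.48 (SE 0.12, unadjusted p = 0.00324, adjusted p = 0.886 by edgeR), and the exact two-sided permutation test gave p = 0.0357, the smallest that 5 against 3 mice can give. The adjusted p did not pass the threshold, and over the 17 alternatives it ranged from 0.128 to 1.00. Leaving out each library in turn moved the log2 difference between -0.50 and -0.41. Without the 3 females that stood apart it was -0.42 (SE 0.14, adjusted p = 0.972 by edgeR). In males, Atf4 was 75.9, 70.8, 95.6, 73.6 and 83.9 CPM in LP and 103, 87.8, 70.7, 78.9 and 113 CPM in NP mice, and the groups overlapped.

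By edgeR, 0 of 9 genes passed an adjusted p of 0.05 in females, as did 0% of all genes tested, and 1 of 9, Atf4, had an unadjusted p under 0.05, against 4.17% of all genes. By DESeq2 it was 0 and 2 of 9, the second being Psat1, where 9 and 758 of all 13510 genes were. Psat1 was 41.9, 33.5, 140.0, 102 and 102 CPM in LP females and 25.1, 68.6 and 35.0 CPM in NP females. LP females 3, 4 and 5 were above all NP females, while LP females 1 and 2, which belong to the libraries that stood apart, lay within the NP range. The log2 difference was 0.97 (SE 0.52, unadjusted p by edgeR above 0.05), and 1.30 (SE 0.40, adjusted p = 0.972 by edgeR) without those 3 libraries. Leaving out 1 female at a time moved it between 0.71 (without NP female 1) and 1.52 (without NP female 2). Phgdh was 31.9, 23.2, 43.9, 30.9 and 42.1 CPM in LP females and 13.7, 47.7 and 18.5 CPM in NP females. NP female 2 was the highest of all and NP females 1 and 3 the lowest, so the groups overlapped. Its log2 difference was 0.36 (SE 0.40), and 0.35 (SE 0.46) without the 3 that stood apart. It was 0.07 without NP female 1, 0.17 without NP female 3 and 1.13 (SE 0.28, adjusted p = 0.135 by edgeR) without NP female 2, so its size rests on single NP mice. Without NP female 2, 2638 of 13579 genes had an unadjusted p under 0.05 by edgeR, against 4.17% in the main fit.

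Asns, the gene for asparagine synthetase, was 3.46, 2.83, 5.51, 4.53 and 4.88 CPM in LP females and 4.48, 5.12 and 1.98 CPM in NP females. The lowest value of each group came from a library that stood apart, and the groups overlapped. Chac1 ranged 8.76-fold among females, from 0.645 to 5.65 CPM, the widest spread of the genes tested. The log2 differences were 0.38 for Chac1 (SE 0.68), 0.13 for Asns (SE 0.36), 0.02 for Shmt2 (SE 0.14), -0.09 for Sesn2 (SE 0.24), -0.26 for Eif4ebp1 (SE 0.36) and -0.33 for Ddit3 (SE 0.31). Without the 3 libraries that stood apart they were 0.70 for Chac1 (SE 0.44), 0.06 for Asns (SE 0.25), 0.03 for Shmt2 (SE 0.16), -0.06 for Sesn2 (SE 0.15), 0.14 for Eif4ebp1 (SE 0.42) and 0.12 for Ddit3 (SE 0.29). The median over the 9 genes was 0.02, beside -0.01 over all genes tested.

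Whether the diet difference itself differed between the sexes was tested with an interaction term over 18 libraries. None of the 9 genes passed an adjusted p of 0.05, where 0.0158% of all 12665 genes did, and none had an unadjusted p under 0.05 by edgeR, where 4.02% did. By DESeq2 there were also 0 of 9 at an unadjusted p under 0.05. DESeq2 gave an adjusted p only for Atf4, Sesn2 and Shmt2, and none of these passed. By edgeR, Atf4 had the smallest p, with a diet difference in females lower than that in males by -0.31 on the log2 scale (SE 0.18, adjusted p = 0.977 by edgeR). Psat1 was at 0.54 (SE 0.54) and Chac1 at 0.60 (SE 0.85). These 3 values were -0.25, 0.86 and 0.93 without the 3 females that stood apart.

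**Figure D2:**
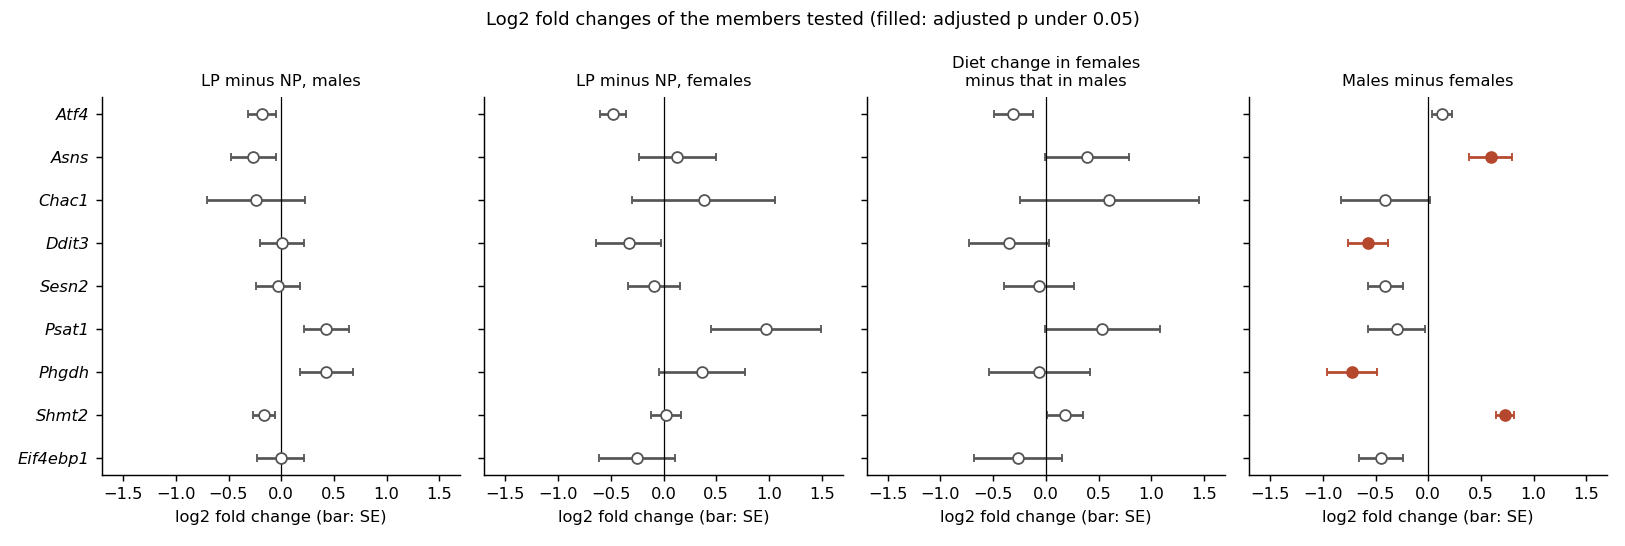
Log2 fold changes with their SE for the 9 genes tested, in the diet comparisons within each sex, in the interaction and between the sexes. Filled points passed an adjusted p of 0.05 by edgeR. The filled points are Asns, Ddit3, Phgdh and Shmt2 between males and females, and none in the diet comparisons.

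Trib3, below the count minimum, was between 0.328 and 1.71 CPM in males and between 0.181 and 1.69 CPM in females. Its groups overlapped by diet in each sex, with exact two-sided permutation p = 0.913 in males and p = 0.786 in females (n = 5 and 3).

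Genes of the wider pathway did not pass by diet either. In males, females and the interaction, 0 genes passed an adjusted p of 0.05 in any of 7 pathway lists: the 12 genes upstream of ATF4, 17 other targets and partners, 9 amino acid transporters, 12 cytosolic aminoacyl-tRNA synthetases, 14 serine, glycine and one-carbon enzymes, 11 genes of amino acid sensing and mTORC1, and 12 endoplasmic reticulum stress genes. This held under every alternative. Of all genes tested, 0.0379% passed in males, 0% in females and 0.0158% in the interaction. List genes below the count minimum were not tested. At an unadjusted p under 0.05 by edgeR, between 0 and 2 genes of a list stood in males, where 3.84% of all genes did. In females it was between 0 and 1, where 4.17% of all genes did. Median log2 differences over these lists lay between -0.08 and 0.08 in males and between -0.09 and 0.16 in females. The 4 eIF2 alpha kinases were at -0.08 for GCN2 (SE 0.17), 0.14 for PERK (SE 0.10), -0.24 for PKR (SE 0.13) and -0.03 for HRI (SE 0.08) in males. In females they were at 0.09 (SE 0.15), -0.03 (SE 0.26), -0.27 (SE 0.72) and 0.09 (SE 0.18), in the same order. Amt, the aminomethyltransferase of the glycine cleavage system, chosen after its values were seen, was higher by 0.47 in LP males (unadjusted p = 0.0017, adjusted p = 0.967 by edgeR) and by 0.48 in LP females (unadjusted p = 0.010, adjusted p = 0.886 by edgeR), short of the threshold in each.

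Males and females differed in 4 of the 9 genes tested. By edgeR, Shmt2 and Asns were higher in males and Phgdh and Ddit3 were higher in females. This was 4 of 9, beside 38.7% of all 12665 genes, with 2 higher in males, where 18.9% were, and 2 higher in females, where 19.8% were. At an unadjusted p under 0.05 there were 6 of 9 against 46.9% of all genes. A count near the share of all genes says nothing particular about the amino acid response. Males and females did not overlap for 1 of 9 genes, Shmt2, where 8.4% of all genes did not. In a list of 4 proximal tubule S3 and male-type genes, all detected, the summed level was 23348 to 44296 CPM in males and 1801 to 19049 CPM in females. The summed podocyte level of 4 markers was 130 to 212 CPM in males and 217 to 427 CPM in females. Their part in the differences between the sexes was not tested.

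Shmt2 was 252, 263, 311, 226 and 258 CPM in LP males and 328, 256, 270, 286 and 325 CPM in NP males. It was 195, 161, 155, 185 and 145 CPM in LP females and 149, 169 and 180 CPM in NP females. Each male was above each female. The log2 difference of males minus females was 0.73 (SE 0.09, adjusted p = 4.04e-06 by edgeR). The exact two-sided permutation test gave p = 4.57e-05, the smallest that 10 against 8 mice can give. The call held in 18 of 18 fits that left out 1 library and in all 10 other settings, within each diet included.

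Phgdh went the other way, at 18.5 ± 6.47 CPM (SD, n = 10) in males and 31.5 ± 12.4 CPM (SD, n = 8) in females, with overlap. Its log2 difference was -0.73 (SE 0.24, adjusted p = 0.0222 by edgeR). Without NP female 2 it was -0.36 (adjusted p = 0.170 by edgeR), and without the 3 females that stood apart -0.94 (adjusted p = 0.0105 by edgeR). It was -0.49 with limma-voom (adjusted p = 0.0646), -0.69 within LP (adjusted p = 0.0836 by edgeR) and -0.75 within NP (adjusted p = 0.203 by edgeR), where it did not pass. Psat1, the next enzyme of serine synthesis, was at -0.30 (SE 0.27, adjusted p = 0.406 by edgeR) and passed only without the 3 females that stood apart, at -0.60 (adjusted p = 0.0433 by edgeR). It was -0.04 without NP female 2.

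Asns was 4.84, 7.56, 5.24, 4.59 and 5.75 CPM in LP males and 10.1, 5.39, 6.44, 5.08 and 6.62 CPM in NP males. The 3 lowest values of all 18 mice were those of the 3 females that stood apart. The log2 difference was 0.59 (SE 0.20, adjusted p = 0.0269 by edgeR). It was 0.31 (adjusted p = 0.182 by edgeR) without those 3 females, 0.52 (adjusted p = 0.0572) without LP male 2, 0.48 (adjusted p = 0.0607) without NP male 1 and 0.43 (adjusted p = 0.0866) without NP female 3 alone. Nor did it pass with limma-voom (0.39, adjusted p = 0.0723), within LP (0.40, adjusted p = 0.230 by edgeR) or within NP (0.79, adjusted p = 0.153 by edgeR). Ddit3 ranged from 5.22 to 9.99 CPM in males (median 6.55) and from 6.56 to 18.9 CPM in females (median 9.72). NP female 3 was the highest, and the groups overlapped. The log2 difference was -0.57 (SE 0.19, adjusted p = 0.0239 by edgeR), -0.32 (adjusted p = 0.141 by edgeR) without NP female 3 and -0.29 (adjusted p = 0.223 by edgeR) without all 3 females that stood apart. It did not pass within LP (-0.39, adjusted p = 0.120 by edgeR) or within NP (-0.73, adjusted p = 0.184 by edgeR), nor with no filter on low counts (adjusted p = 0.0666 by edgeR).

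Sesn2 was 67.1 ± 16.2 CPM (SD, n = 10) in males and 88.1 ± 19.6 CPM (SD, n = 8) in females. The log2 difference of -0.41 did not pass (SE 0.17, adjusted p = 0.0613 by edgeR). It passed without the 3 females that stood apart, at -0.62 (adjusted p = 0.00713 by edgeR). The 5 remaining females were at 95.2 to 112 CPM and the males at 41.2 to 86.1 CPM. How many of all genes lay apart in this subset was not counted, and with all 8 females Sesn2 overlapped. Sesn2 also passed with DESeq2 (adjusted p = 0.0496), with limma-voom (adjusted p = 0.00931) and in 5 of 18 fits that left out 1 library, those without LP male 1, LP male 4, LP female 2, NP male 3 or NP female 3. Eif4ebp1 was at -0.45 (SE 0.21), Chac1 at -0.41 (SE 0.42) and Atf4 at 0.13 (SE 0.09), and none of these passed. Eif4ebp1 passed without NP female 2 (-0.63, adjusted p = 0.00992 by edgeR) and was -0.23 without NP female 3. Chac1 lay between -0.72 (without NP male 3) and -0.08 (without NP female 1). Eif4ebp1 was at -0.20, Chac1 at -0.80 and Atf4 at 0.08 without the 3 females that stood apart.

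The lists below are read against all genes tested, of which 18.9% were higher in males and 19.8% higher in females. Without the 3 females that stood apart, 4878 of 12949 genes passed in either direction, against 4900 of 12665 in the main fit. Of the genes upstream of ATF4, 2 of 12 were higher and 2 lower in males, near the shares of all genes. GCN2, the sensor of uncharged transfer RNA, was lower in males by -0.62 (SE 0.11, adjusted p = 0.000371 by edgeR), at 13.7 ± 2.54 CPM in males (SD, n = 10) and 21.2 ± 2.04 CPM in females (SD, n = 8). Ppp1r15a, the inducible subunit of the eIF2 alpha phosphatase, was lower by -0.57. HRI was higher by 0.31 and Eif2s1, eIF2 alpha itself, by 0.33. PKR and PERK were at 0.00 and -0.04 and did not pass. Without the 3 females that stood apart, 1 was higher and 3 were lower: GCN2 was at -0.65, Ppp1r15a at -0.81 and Eif2s1 at 0.29, HRI no longer passed at 0.16 (adjusted p = 0.0632 by edgeR), and PKR passed at -0.50 (adjusted p = 0.0458 by edgeR).

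Aminoacyl-tRNA synthetases, which charge transfer RNA and of which many are ATF4 targets, were higher in males for 8 of 12 and lower for 0, beside 18.9% and 19.8% of all genes. The 5 with the smallest p were Sars1 at 0.40, Nars1 at 0.29, Aars1 at 0.41, Yars1 at 0.27 and Tars1 at 0.27. The list median was 0.27, beside -0.05 over all genes tested. The count fell to 3 higher (Sars1, Nars1 and Aars1) and 1 lower (Wars1, at -0.36) without the 3 females that stood apart. Within LP it was 1 and within NP 0. Of all genes, 2505 of 13228 passed in either direction within LP and 1954 of 12952 within NP, against 4900 of 12665 in the main fit. The count of synthetases was 4 without LP male 3, NP male 1 or NP female 3, where 4440 of 12689, 4569 of 12739 and 4542 of 12838 genes passed. It was 5 without LP male 2, LP male 4, LP male 5 or LP female 2. Their summed level was 641 to 690 CPM in the 3 females that stood apart, 843 to 907 CPM in the other 5 females and 878 to 1036 CPM in males.

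Serine, glycine and one-carbon enzymes were lower in males for 6 of 14, where 19.8% of all genes were. Gldc, the glycine decarboxylase of the glycine cleavage system, had the largest difference of the list, at 104 ± 47.4 CPM in males (SD, n = 10) and 447 ± 175 CPM in females (SD, n = 8), a log2 difference of -2.12 (SE 0.28, adjusted p = 1.63e-05 by edgeR). Amt, of the same system, was lower by -0.49, Shmt1, the cytosolic counterpart of Shmt2, by -0.76, and Tyms, thymidylate synthase, by -0.87. Shmt1 and Shmt2 thus passed in opposite directions. Without the 3 females that stood apart, 7 were lower, with Gldc at -2.41, Amt at -0.55, Shmt1 at -0.89 and Tyms at -0.60. The list median was -0.41.

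Among amino acid transporters, Slc6a9, a glycine carrier, was higher in males by 2.07 (SE 0.17, adjusted p = 5.91e-08 by edgeR) and Slc1a4 by 1.32. Slc1a5, a glutamine carrier, was lower by -0.93, and Slc7a5 and Slc3a2, the chains of the leucine carrier, by -0.58 each. That made 2 higher and 3 lower of 7 tested, beside 18.9% and 19.8% of all genes, with a median of -0.17. The same 5 passed without the 3 females that stood apart, with Slc6a9 at 1.95, Slc1a4 at 1.32, Slc1a5 at -1.31, Slc3a2 at -0.79 and Slc7a5 at -0.59. Slc3a2 did not pass without NP female 2 (-0.38, adjusted p = 0.0522 by edgeR). Of other ATF4 targets and partners, 3 were higher and 1 lower of 13 tested, near the shares of all genes, with Bcat1, the cytosolic branched-chain aminotransferase, at 1.56, Gdf15, a stress hormone, at 0.73, Xpot, the transfer RNA exporter, at 0.57 and Gpt2 at -0.78, and a median of -0.15. Without the 3 females that stood apart it was 2 higher and 3 lower of 14, and Gdf15 no longer passed at 0.42 (adjusted p = 0.192 by edgeR). Gdf15 passed in 11 of 18 fits that left out 1 library.

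Of 10 genes of amino acid sensing and mTORC1 tested, 5 were higher and 1 lower in males, beside 18.9% and 19.8% of all genes. The higher genes were Castor1, an arginine sensor, at 1.56, Castor2 at 0.78, Mtor at 1.21, Eif4ebp2 at 0.44 and Rptor at 0.38. The lower gene, named after its values were seen, was Sesn1, a sestrin like Sesn2, at -0.72. The list median was 0.23. The same 6 passed without the 3 females that stood apart, with Castor1 at 1.54, Mtor at 1.03, Castor2 at 0.82, Eif4ebp2 at 0.42, Rptor at 0.28 and Sesn1 at -0.88. Of 12 endoplasmic reticulum stress genes, 4 were higher and 1 lower, beside 18.9% and 19.8% of all genes, with Edem1 at 1.22 (SE 0.09, adjusted p = 9.14e-09 by edgeR), the chaperone Hspa5 at 0.42, Calr at 0.34, Pdia4 at 0.28 and Sdf2l1 at -0.77, and a median of 0.11. Without the 3 females that stood apart, 3 were higher and 1 lower: Hspa5 (0.22) and Sdf2l1 (-0.23) no longer passed, and Herpud1 passed at -0.71. Neither Hspa5 (0.29) nor Sdf2l1 (-0.49) passed without NP female 3 alone, nor Calr (adjusted p = 0.0559 by edgeR) without NP female 1.

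**Figure D3:**
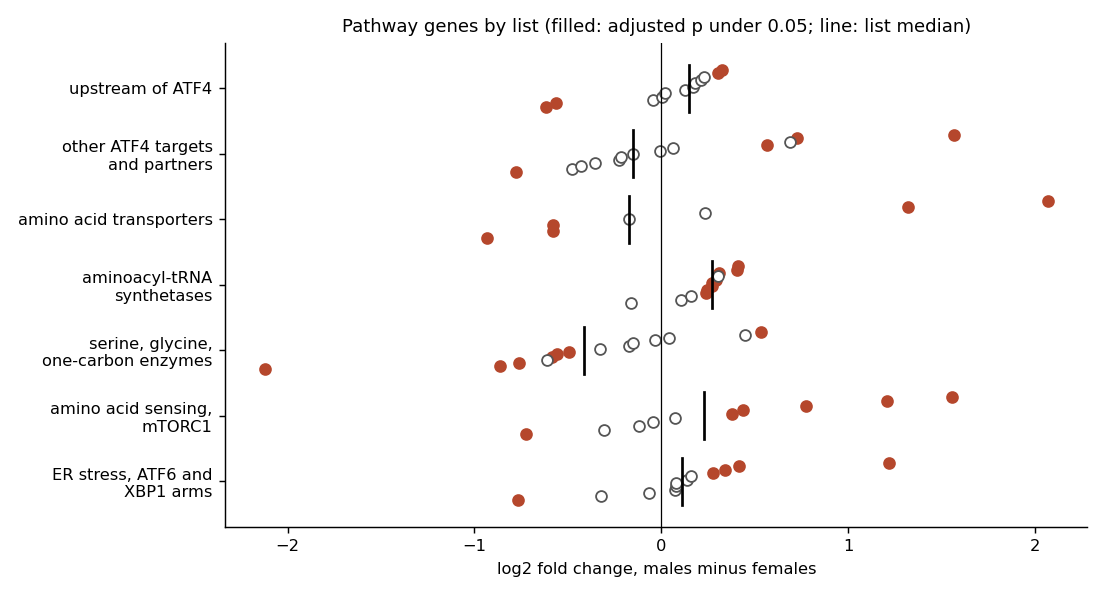
Log2 fold change of males minus females for each tested gene of 7 pathway lists. Filled points passed an adjusted p of 0.05 by edgeR, open points did not, and vertical lines are list medians. Aminoacyl-tRNA synthetases lie mostly right of 0 and serine, glycine and one-carbon enzymes mostly left.

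Whether the other genes followed the Atf4 transcript from mouse to mouse was examined over the 10 males, in 9 relations on log2 CPM with permutation of pairings. No such value is given for females, because 3 of their 8 libraries stood apart. Psat1 was lower where Atf4 was higher (Pearson r = -0.95, permutation p = 7.00e-05, adjusted p = 0.00063; Spearman rho = -0.88, permutation p = 0.00176, adjusted p = 0.0158). Leaving out the 2 males farthest from the median of Atf4, r was -0.90, and with the diet means removed it was -0.95. Among 12664 genes, Psat1 had the lowest r with Atf4, and 0.490% of the genes had an r of 0.9 or more in size.

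Shmt2 had r = 0.79 (permutation p = 0.00691, adjusted p = 0.0311) and rho = 0.59 (permutation p = 0.0796, adjusted p = 0.216). Its r fell to 0.53 without the 2 males farthest from the median, NP males 1 and 5, so the relation rests on those mice. Among the 12664 genes, 2.61% had an r with Atf4 at least that of Shmt2. The median size of r over these genes was 0.45. Phgdh had r = -0.67 (permutation p = 0.0348, adjusted p = 0.104) and Sesn2 r = -0.62 (permutation p = 0.0607, adjusted p = 0.137). Asns, Chac1, Trib3, Ddit3 and Eif4ebp1 had r between -0.40 and 0.39, with adjusted permutation p = 0.368 for each. Some marker levels moved along the same axis in these males, and others less so. As a description over 10 libraries, the summed podocyte markers had r = -0.85 with Atf4 and 0.91 with Psat1, the collecting duct markers 0.74 and -0.61, and the S3 and male-type markers 0.66 and -0.67. The distal convoluted tubule markers had -0.72 and 0.76. The proximal tubule markers had only 0.18 and -0.17, and the tubular injury markers -0.09 and 0.19. The part of these markers in the relation was not tested.

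**Figure D4:**
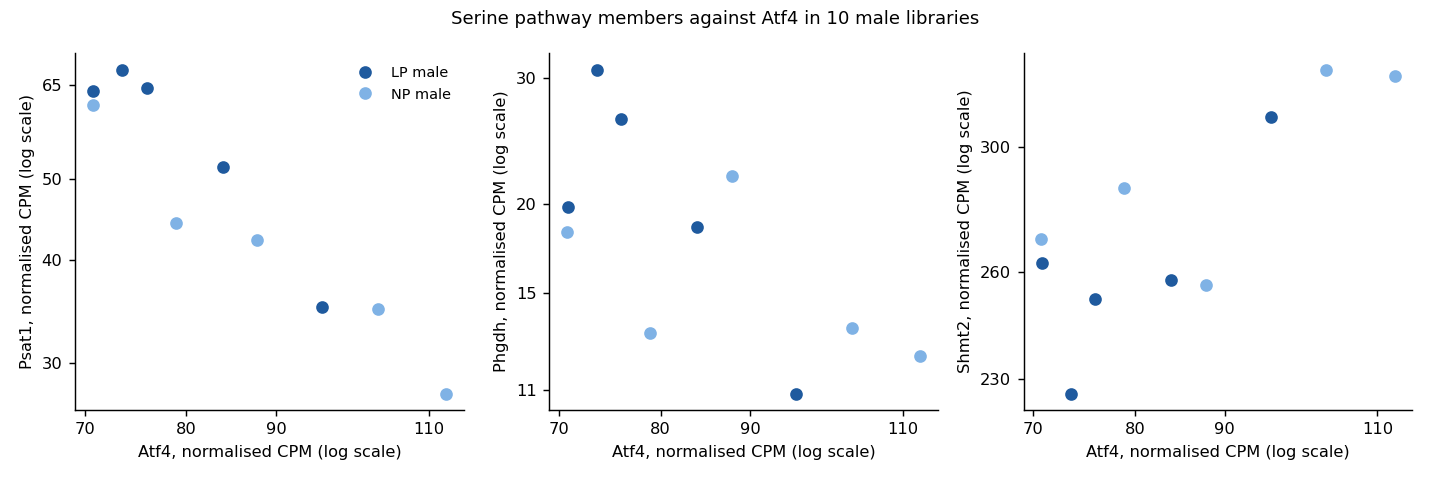
Psat1, Phgdh and Shmt2 against Atf4 in 10 male libraries, as normalised CPM on log axes, with LP males dark and NP males light. Psat1 falls as Atf4 rises (r = -0.95), and Shmt2 is highest in the mice with the most Atf4.

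The gene whose levels were most like each of the 10 was found over 18 libraries on log2(CPM + 1), as a description, since the libraries share sex, collection time and the 3 that stood apart. Asns was most like Rars1, arginyl-tRNA synthetase (r = 0.90, and 0.80 in the 10 males), though the value was -0.34 in the 5 females that did not stand apart. Ddit3 was most like Fabp3, a fatty acid binding protein (0.91, and 0.86 in males), and Phgdh most like Pag1 (0.95, and 0.88 in males). Shmt2 was most like Gm7993, a processed pseudogene (0.97, 0.79 in males and 0.37 in those 5 females), and Atf4 most like Gm43031, a non-coding gene (0.86, and 0.72 in males). Psat1 was most like Rprd2 (0.90), Sesn2 like Foxp1 (0.89), Eif4ebp1 like Rpl22 (0.88), Chac1 like Chst3 (0.81) and Trib3 like Mcm3ap (0.73). None of the 10 was most like another of the 10.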

How the data were processed

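RNA was taken from a piece of the left kidney and sequenced from poly(A)-selected libraries. The authors aligned reads with STAR to GRCm39 with GENCODE annotation, and the deposited files hold raw counts of reads per gene. The column counted without regard to strand was used here, since the library kit was non-directional. Reads not assigned to a single gene, 28.6% to 36.1% of the reads of a library, were left out. Depth limits the low genes, such as Trib3. Groups came from the sample titles.

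Genes that reached 10 counts in all libraries of a comparison were tested with edgeR 4.0.16 (TMM, quasi-likelihood F test, R 4.3.3) and Benjamini-Hochberg adjustment. DESeq2 1.42.0 and limma-voom (limma 3.58.1), other filters and size factors, a replicate block, single diets and leaving out libraries were alternatives. Normalised CPM are counts scaled to library sizes by TMM over 18 libraries. Single genes also had exact two-sided permutation tests (scipy 1.17.1) on log2 CPM. The edgeR step was tested on simulated counts. The 10 genes, the list genes past the threshold (at most 5 with the smallest p per list and comparison), the 4 eIF2 alpha kinases and the most similar gene were named. The result of 1 list gene is not reported here. The genes and lists were chosen with earlier results of these data known.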

Additional observations from a re-analysis of the deposited data

Results flagged for a closer look

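Among 30 combinations of a gene and a group of 5 mice, 3 held a mouse far from the others by Dixon's criterion, of which chance gives about 1 in 20. Chac1 in NP male 3 was 5.86 CPM, where the next highest NP male was at 2.18 CPM. Ddit3 in LP male 2 was 8.97 CPM, where the next was at 6.91 CPM. Ddit3 in LP female 5 was 6.70 CPM, below the next lowest LP female at 9.54 CPM. NP females, with 3 mice, were not examined in this way. The causes were not tested.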

How the results depend on the processing

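Shmt2 kept its direction and its call between males and females under all 28 alternatives, and no gene passed an adjusted p of 0.05 by diet or in the interaction under any. The number of the genes at an unadjusted p under 0.05 moved from 0 to 2 in males with no filter on low counts. In females it moved from 1 to 2 with no filter, with DESeq2, without the 3 females that stood apart and with all 4 groups in 1 model, to 3 with limma-voom and to 0 with the replicate block. It moved from 0 to 2 in the interaction with limma-voom. The number over all genes moved as well. In females it was 564 of 13510 in the main fit, 2609 of 13510 with limma-voom and 168 of 13510 with the block. In the interaction it was 509 of 12665 in the main fit and 3109 of 12665 with limma-voom. Between the sexes, 4 genes became 1, Shmt2, with the replicate block (Phgdh adjusted p = 0.0545, Asns 0.0525, Ddit3 0.0645), within LP and within NP, and the unadjusted count of 6 became 2 within NP. Over all genes, 4900 of 12665 passed the adjusted p in the main fit and 4203 of 12665 with the block. Within LP it was 2505 of 13228 and within NP 1954 of 12952. At an unadjusted p under 0.05 it was 5938 of 12665 in the main fit and 4157 of 12952 within NP. Leaving out 1 library gave 0 to 3 of the tested genes at an unadjusted p under 0.05 in males (3 without LP male 3, 1 without NP male 2 or 3), 1 to 3 in females (3 without NP female 2, 2 without LP female 2), 0 to 1 in the interaction (1 without NP male 5) and 3 to 5 adjusted or 4 to 6 unadjusted between the sexes. Over all genes it was 836 of 13226 in males without LP male 3. In females it was 2638 of 13579 without NP female 2 and 485 of 13560 without LP female 2. In the interaction it was 734 of 12688 without NP male 5. Between the sexes 4440 of 12689 (without LP male 3) to 5314 of 12683 (without NP female 2) passed the adjusted p. Signs turned for Eif4ebp1 in males (0.27 with limma-voom, 0.027 with the block). In females they turned for Chac1 (-0.40 with the block) and, without the 3 that stood apart, for Ddit3 (0.12) and Eif4ebp1 (0.14). In the interaction they turned for Chac1 (-0.11 with the block), Sesn2 (0.047 with limma-voom), Phgdh (0.87 with limma-voom, 0.055 with the block) and, without the 3 that stood apart, Ddit3 (0.10) and Eif4ebp1 (0.14). Atf4 turned between the sexes within NP (-0.012). Leaving out 1 library also turned signs, with ranges in males of -0.47 to 0.36 for Chac1, -0.092 to 0.17 for Ddit3, -0.14 to 0.10 for Sesn2 and -0.16 to 0.077 for Eif4ebp1. In females the ranges were -0.17 to 0.41 for Asns, -0.60 to 0.18 for Ddit3, -0.27 to 0.088 for Sesn2, -0.029 to 0.084 for Shmt2 and -0.59 to 0.19 for Eif4ebp1. In the interaction they were -0.00091 to 1.26 for Chac1, -0.64 to 0.17 for Ddit3, -0.25 to 0.10 for Sesn2, -0.38 to 0.67 for Phgdh and -0.62 to 0.19 for Eif4ebp1. The causes were not tested. Males with the same replicate number did not deviate together (correlations -0.30 to 0.33), so the numbers were not taken to pair them. In females the correlations were -0.61 to -0.39. Each female pair set a library that stood apart against another that did not, so these values cannot show whether the numbers pair females. Trib3 lay under the count minimum. The SE of Chac1, 0.46 in males and 0.68 in females, exceeded its differences.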
